A study of Rattus norvegicus with 12 samples.

Results

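Rats given high corticosterone for 12 days were compared with sham-operated rats, by RNA sequencing of hypothalamic tissue that contains the paraventricular nucleus (PVH). The comparison used the 2 libraries titled 12-day high Cort (high Cort below) and the 2 titled sham-ADX (sham below, a sham operation for adrenalectomy), 4 of the 12 libraries of the series, and was described across all genes that passed a filter on low counts. All animals were male wild type Wistar rats aged 12 weeks. The other 8 libraries came from rats 7 days after adrenalectomy (ADX), adrenalectomised rats supplemented with corticosterone (supplemented ADX), and rats taken at 1 h or at 3 h of acute corticosterone. They entered the fit to estimate the spread between replicates, and their levels are given where they help to place a gene. The labels gave neither the dose and route of corticosterone nor whether the high Cort rats had been operated on. They did not say whether a library came from 1 animal or from a pool, so p-values reflect no more than the differences among these libraries, which may be technical.

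Corticosterone, the chief glucocorticoid in rats, binds the glucocorticoid receptor, a transcription factor held in the cytoplasm by chaperones until hormone binds, and the receptor then activates some genes and represses others. In the PVH, neurons that make corticotropin-releasing hormone (Crh) start the cascade through the pituitary to the adrenal gland, and glucocorticoids act back on this axis as negative feedback. Glucocorticoid receptors are also found in astrocytes, microglia and the endothelium of the blood-brain barrier, all of which are part of dissected tissue.

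The libraries held 25294220 and 31000682 fragments in high Cort, and 25724232 and 27797278 in sham. The files list 17310 genes, and 12856 passed the filter. Levels are fragment counts scaled to library size (CPM), scaled by the trimmed mean of M-values (TMM). Changes are log2 fold changes of high Cort over sham ± SE, and calls are genes with an adjusted p below 0.05 in edgeR's quasi-likelihood test. Genes of the PVH were present in every library: Sim1, a transcription factor required for PVH neurons, stood at 37.5 and 36.5 CPM in high Cort libraries and 39.9 and 49.7 CPM in sham. The mean log2 CPM of 16 thalamus markers, a measure of neighbouring tissue in the dissection, was 7.31 and 7.34 in high Cort, against 7.02 and 7.44 in sham. In the libraries of the other groups it was lower, between 5.82 and 6.85, so levels given for those groups come from tissue that differed in this measure. The 18S ribosomal RNA gene Rn18s was at 3568 and 1366 CPM in high Cort libraries and 1046 and 1288 CPM in sham, so high Cort replicate 1 stood highest. The part of the thalamus share and of ribosomal RNA in the results below was not tested beyond the fits named there.

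Few genes were called between high Cort and sham, and most of the called changes were modest. The test called 112 genes, 0.871% of those tested, of which 66 were higher (0.513%) and 46 lower (0.358%). Only 16 of them differed by 2-fold or more, 10 higher and 6 lower, and 78 differed by less than 1.5-fold. The median absolute log2 fold change of the called genes was 0.44. In the same test 1075 genes had an unadjusted p below 0.05, and with 2 libraries per group smaller changes may have gone uncalled. In all 112 the 2 groups did not overlap, which held for 37.8% of all genes tested. The genes nearest the threshold were Tmem129 (adjusted p = 0.0494) on the inside and Col5a3 (adjusted p = 0.0505) on the outside.

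**Figure D1:**
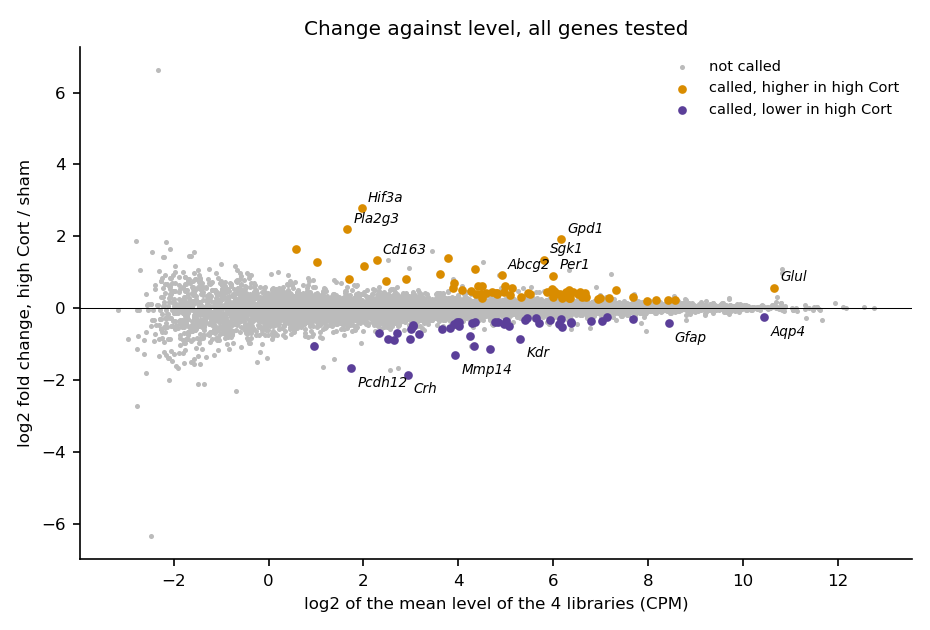
Log2 fold change of high Cort over sham (y axis) against the log2 of the mean CPM of the 4 libraries (x axis), 1 point per gene for the 12856 genes tested. Called genes are coloured, 66 above the zero line and 46 below it; most lie close to the line, and the grey points far from it at the left are genes with few fragments.

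The high Cort libraries did not lie equally far from sham. Replicate 1 was farther than replicate 2 from the sham mean in 51 of the 66 genes called higher and in 39 of the 46 called lower, against 52.6% of all genes tested. Leaving out high Cort replicate 1 lowered the number of calls to 23, and leaving out sham replicate 2 lowered it to 37. Without high Cort replicate 2 there were 121 calls and without sham replicate 1 there were 77. The genes called in each of these 4 fits numbered 19, of which 13 were higher (Gpd1, Sgk1, Cd163, Gpatch4, Abcg2, Per1, Bcl6, Glul, Kcnf1, Paqr8, Per2, Lonrf3 and Klf9) and 6 lower (Nes, Kdr, Clec14a, Fabp7, Cd93 and Mmp14).

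**Figure D2:**
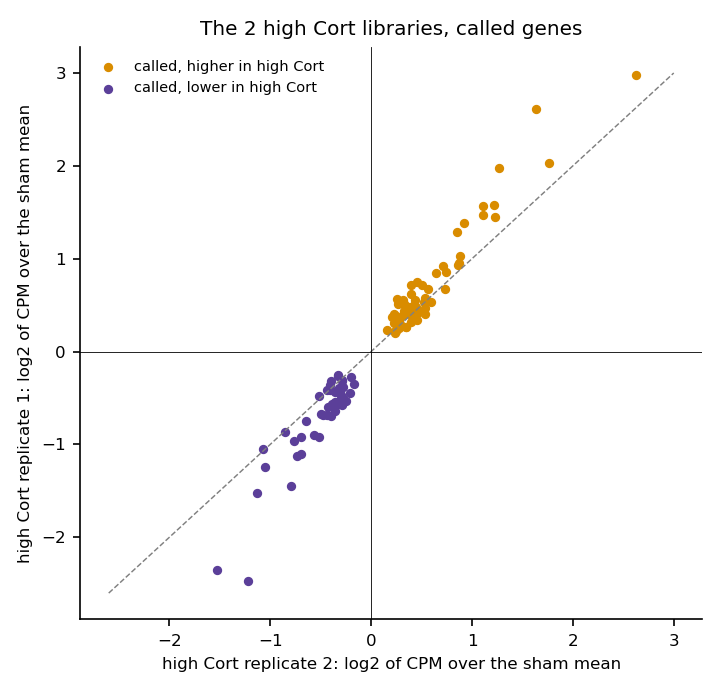
Log2 of CPM over the sham mean in high Cort replicate 1 (y axis) and replicate 2 (x axis) for the 112 called genes, with the line of equality dashed. Both libraries lie on the same side of zero for each gene, and 51 of 66 genes called higher and 39 of 46 called lower were farther from the sham mean in replicate 1.

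Crh had the lowest log2 fold change of the called genes. It stood at 2.35 and 4.16 CPM in high Cort libraries and 10.5 and 13.5 CPM in sham, which is 3.61-fold lower (-1.85 ± 0.27 on the log2 scale, adjusted p = 0.0170). The groups were far apart, although the high Cort libraries also differed from each other. Its adjusted p was 0.0932 without sham replicate 2, 0.071 in the fit without high Cort replicate 1 and 0.0765 in the 4 libraries alone, with log2 fold changes between -2.36 and -1.54 over 15 alternative fits. Bulk tissue cannot tell fewer cells of a type from less RNA per cell, and this holds for every gene group below.

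None of 18 tested transcription factors of the PVH and its neighbours was called, 6 were positive and the median was -0.03. Otp, a homeobox factor required for these neurons, was at 21.7 and 22.8 CPM in high Cort libraries and 26.9 and 33.6 CPM in sham (-0.44 ± 0.10, adjusted p = 0.0812). Sim1 had -0.28 ± 0.09 (adjusted p = 0.226), and Pou3f2, which acts downstream of it, had -0.17 ± 0.05 (adjusted p = 0.218). Arnt2, the partner of the Sim1 protein, was at 414.5 and 420.0 CPM in high Cort libraries and 452.3 and 395.4 CPM in sham, with overlapping groups (-0.02 ± 0.06). Without sham replicate 1, Otp (adjusted p = 0.0119) and Sim1 (0.0139) passed, and Otp also passed by DESeq2 (0.0126). Taken over Otp in the same library, Crh was 0.108 and 0.182 in high Cort, against 0.391 and 0.400 in sham. The ratios of Crh to Otp did not overlap between the groups. Otp itself was lower in both high Cort libraries, and the part of PVH content in the Crh values was not tested.

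Avp, Trh and Oxt, the other peptides of PVH neurons described here, were not called, and their ratios to Otp overlapped between the groups. Vasopressin (Avp), which acts with Crh on the pituitary, was at 75.0 and 58.1 CPM in high Cort libraries and 95.2 and 103.1 CPM in sham (-0.58 ± 0.12, adjusted p = 0.0982). Over Otp it was 3.45 and 2.55 in high Cort, against 3.54 and 3.07 in sham. Over Sim1 it was 2 and 1.59 in high Cort, against 2.39 and 2.08 in sham, without overlap. The reading of Avp against the lineage thus depended on the marker. Thyrotropin-releasing hormone (Trh) was at 50.5 and 50.8 CPM in high Cort libraries and 62.5 and 71.3 CPM in sham (-0.40 ± 0.13, adjusted p = 0.392), and at 2.32 and 2.22 over Otp in high Cort, against 2.33 and 2.12 in sham. Oxytocin (Oxt) was at 209.1 and 179.2 CPM in high Cort libraries and 220.6 and 383.2 CPM in sham, where the sham libraries differed widely (-0.64 ± 0.26, adjusted p = 0.579). Whether they passed depended on the fit. Avp passed by DESeq2 (adjusted p = 1.2e-06) and without high Cort replicate 1 (0.00768), Trh passed by DESeq2 (0.0161) and with the 4 libraries alone (0.0427), and Oxt passed without sham replicate 1 (0.0438). Of 22 tested neuropeptide genes other than Crh, 10 had a positive log2 fold change and none was called, with a median of -0.03 against 0.01 over all genes.

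The rest of the Crh system showed no call. Among 13 tested genes of the Crh list only Crh passed. The receptor Crhr1 was at 14 and 13 CPM in high Cort libraries and 13.3 and 11.9 CPM in sham, and the binding protein Crhbp at 3.20 and 2.99 CPM in high Cort libraries and 4.51 and 3.15 CPM in sham. Pcsk1, the convertase that cleaves prohormones in these granules, was at 71.8 and 73.0 CPM in high Cort libraries and 85.9 and 81.6 CPM in sham (-0.21 ± 0.06, adjusted p = 0.182), and none of 14 prohormone processing genes was called.

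**Figure D3:**
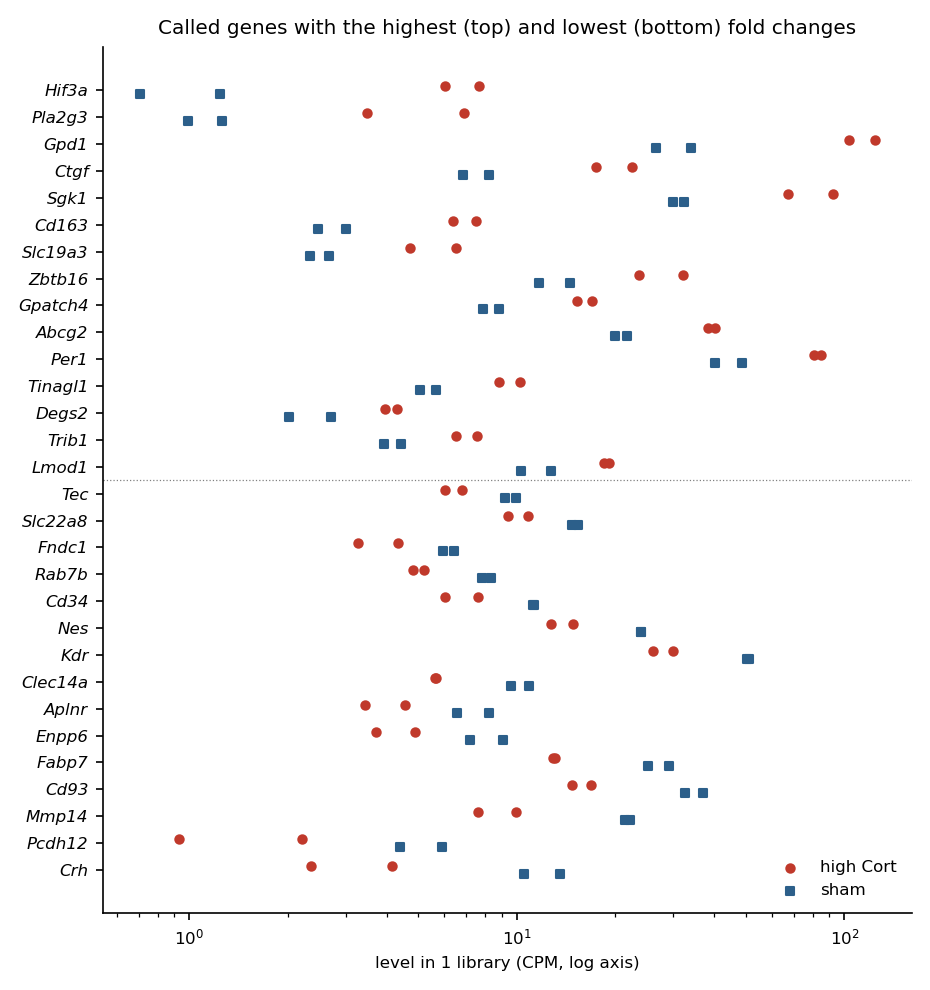
Level in each of the 4 libraries (CPM, log axis) of the 15 called genes with the highest log2 fold change (top) and the 15 with the lowest (bottom), among genes whose mean log2 CPM is 1 or more. Circles are high Cort and squares are sham; Hif3a is at the top and Crh at the bottom, and in each row the 2 groups do not overlap.

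Known targets that the glucocorticoid receptor activates included many that rose. Of 25 signalling and transcription regulators of this kind, 10 were called higher, against 0.513% of all genes tested, and none lower. Of the 25, 23 had a positive log2 fold change, and the median was 0.36 against 0.01 over all genes. This list, like the others here, was written with earlier results of these data known, so its counts describe and do not test. In this list 19 genes had both high Cort libraries above both sham libraries, an order found in 20.9% of all genes. The highest was Hif3a, an inhibitory member of the hypoxia-inducible factor family, at 7.65 and 6.02 CPM in high Cort libraries and 0.706 and 1.24 CPM in sham (2.79 ± 0.39, adjusted p = 0.00896). Sgk1, a kinase that regulates ion channels and transporters, was at 92.2 and 67.1 CPM in high Cort libraries and 32.3 and 30.0 CPM in sham (1.35 ± 0.13, adjusted p = 0.00111). It was not called in the 4 libraries alone (adjusted p = 0.185) or in the 6 libraries that the authors processed in 1 run (0.0698). Zbtb16, a zinc finger repressor, was at 32.1 and 23.6 CPM in high Cort libraries and 14.5 and 11.7 CPM in sham (1.09 ± 0.17, adjusted p = 0.0208). High Cort replicate 1 was the higher of the high Cort libraries in these genes and in all 10 that were called.

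The other called regulators of this list changed less than Hif3a, Sgk1 and Zbtb16. Fkbp5, a co-chaperone that lowers the receptor's affinity for hormone, was at 46.5 and 37.2 CPM in high Cort libraries and 28.8 and 27.8 CPM in sham (0.56 ± 0.09, adjusted p = 0.00532). Tsc22d3, the gene of the leucine zipper protein GILZ, was at 83.9 and 68.1 CPM in high Cort libraries and 57.7 and 55.9 CPM in sham (0.42 ± 0.08, adjusted p = 0.0340). Tsc22d3 was called in 7 of the 15 alternative fits, with an adjusted p of 0.304 in the 4 libraries alone. The transcription factors Bcl6 (0.61 ± 0.08), Klf9 (0.44 ± 0.04) and Klf15 (0.43 ± 0.07) and Errfi1, an inhibitor of the epidermal growth factor receptor (0.32 ± 0.07), also rose. Klf9 was the tightest of them, at 108.6 and 108.2 CPM in high Cort libraries and 78.8 and 81.6 CPM in sham (adjusted p = 9.2e-05).

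Other textbook targets of the receptor did not pass. Dusp1, a phosphatase of MAP kinases, was at 38.2 and 32.7 CPM in high Cort libraries and 23.2 and 25 CPM in sham (0.55 ± 0.18, adjusted p = 0.367). It passed by DESeq2 (0.0373), in the 4 libraries alone (0.0438) and in the 6 libraries that the authors processed in 1 run (0.0243). Nfkbia, the inhibitor of NF-kB, was at 20.2 and 15.7 CPM in high Cort libraries and 13 and 15 CPM in sham (0.35 ± 0.11, adjusted p = 0.217). Cdkn1a (0.02 ± 0.12) and Txnip (-0.02 ± 0.09) lay at zero within their error, and Cebpb was negative (-0.32 ± 0.25). Leaving out high Cort replicate 1 reduced the called regulators to 4 (Per1, Klf9, Sgk1 and Bcl6) with a median of 0.32. The adjusted p of the other 6 then lay between 0.0702 and 0.513. Without sham replicate 2 there were 5 calls, without sham replicate 1 there were 6 and without high Cort replicate 2 there were 11.

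Metabolic, transport and glial targets of the receptor also gave calls in 1 direction. Of 17 tested, 5 were called higher, against 0.513% of all genes, and none lower. Of the 17, 16 were positive and the median was 0.44. Gpd1, the cytosolic glycerol-3-phosphate dehydrogenase that joins glycolysis to glycerolipid synthesis, was at 124.2 and 103.2 CPM in high Cort libraries and 34.1 and 26.6 CPM in sham (1.91 ± 0.16, adjusted p = 0.00146). It was not called in the 4 libraries alone (adjusted p = 0.0644) or in the 6 libraries of the same run (0.0562). Glul, the glutamine synthetase of astrocytes, was the most abundant called gene that rose, at 1876 and 1953 CPM in high Cort libraries and 1352 and 1236 CPM in sham (0.57 ± 0.07, adjusted p = 0.00423). The glial connexin gene Gjb6 (0.44 ± 0.08), the thiamine transporter gene Slc19a3 (1.16 ± 0.20) and Mfsd2a, which carries lysophospholipids across brain endothelium (0.61 ± 0.09), rose too. Sult1a1, a sulfotransferase, had one high Cort library far above the other, at 11 and 5.32 CPM in high Cort libraries and 3.14 and 3.26 CPM in sham (1.33 ± 0.34, adjusted p = 0.174). Without high Cort replicate 1 the calls were Gpd1 and Glul and the list's median was 0.27; without sham replicate 2 there were likewise 2 calls, and without high Cort replicate 2 there were 8.

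The receptor genes themselves were not called. Nr3c1, the glucocorticoid receptor, was at 200.7 and 218.5 CPM in high Cort libraries and 220.8 and 236.2 CPM in sham (-0.12 ± 0.06, adjusted p = 0.630). Of 20 tested genes for corticosteroid receptors, their chaperones, cofactors and local steroid enzymes, Fkbp5 alone was called, and its adjusted p was 0.0762 without sham replicate 2, and 0.0709 in the fit without high Cort replicate 1. The median of this list was 0.02.

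All Period genes of the circadian clock were higher. Their proteins repress the activators of the clock, and glucocorticoids are known to induce Per1 in many tissues. Per1 was at 84.9 and 80.9 CPM in high Cort libraries and 40.2 and 48.7 CPM in sham (0.90 ± 0.08, adjusted p = 9.2e-05). Per2 was at 76.2 and 74.6 CPM in high Cort libraries and 54.8 and 54.4 CPM in sham (0.47 ± 0.05, adjusted p = 0.000449). Per3 was at 88.4 and 87.7 CPM in high Cort libraries and 73.8 and 70.4 CPM in sham (0.29 ± 0.05, adjusted p = 0.0170), and it lost the call in each fit that left out a library (adjusted p between 0.0514 and 0.192). The groups were well apart for all 3 genes and the high Cort libraries nearly equal. Time of day of sampling was not among the sample details used here, and its part in these levels was not tested.

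No other clock gene of 18 tested was called, beside 0.513% called higher and 0.358% called lower over all genes. Tef (0.18 ± 0.04, adjusted p = 0.0674) and Nr1d2 (0.19 ± 0.05, adjusted p = 0.0716) were closest, and both passed with the thalamus score in the fit (0.0315 and 0.0342). The activator Arntl was at 41.5 and 41.4 CPM in high Cort libraries and 45.7 and 45.3 CPM in sham (-0.13 ± 0.06, adjusted p = 0.581). Levels of the Period genes in the other groups differed from gene to gene. Per1 was between 48.7 and 55.2 CPM in the ADX, supplemented ADX and 3 h acute libraries, and at 82.5 and 87.4 CPM after 1 h of acute corticosterone, close to high Cort. Per2 and Per3 were below every other library in both sham libraries: Per2 was between 68.8 and 95.6 CPM, and Per3 between 81.7 and 104.7 CPM, in the 8 libraries of the other 4 groups.

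**Figure D4:**
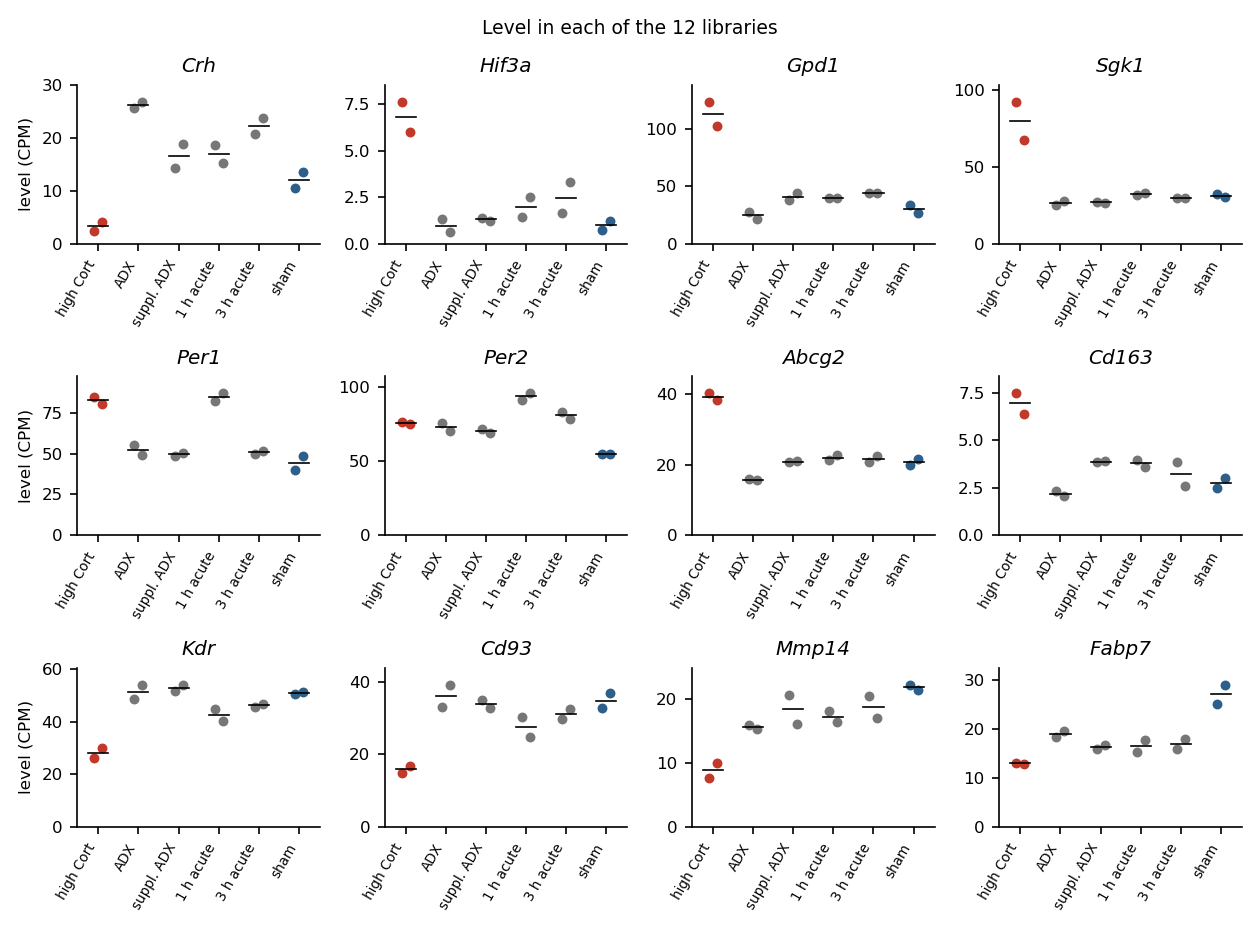
Level (CPM) of 12 called genes in each of the 12 libraries, by group, with the group mean as a line; high Cort is at the left and sham at the right of each panel. High Cort stands apart from all other groups for Hif3a, Gpd1, Sgk1, Abcg2, Cd163, Kdr and Cd93, while Per1 is as high at 1 h acute and Per2 is lowest in sham.

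Promoter sequences are shown for 3 genes that rose and that carry letters of known motifs just upstream of their start: Klf9 and Klf15, both Kruppel-like factors, and Abcg2, described with the barrier transporters below. They are the 250 bases before the RefSeq start in build GRCr8, 5′ to 3′ on the gene's strand, with capitals for the cAMP response element (TGACGTCA), its half-site (TGACG) and the E-box (CACGTG) on either strand. The half-site lies within the full element. They lie at chr1:230126396-230126645 (Klf9), chr4:124522765-124523014 (Klf15) and chr4:89075224-89075473 (Abcg2), all on the plus strand.
Klf9: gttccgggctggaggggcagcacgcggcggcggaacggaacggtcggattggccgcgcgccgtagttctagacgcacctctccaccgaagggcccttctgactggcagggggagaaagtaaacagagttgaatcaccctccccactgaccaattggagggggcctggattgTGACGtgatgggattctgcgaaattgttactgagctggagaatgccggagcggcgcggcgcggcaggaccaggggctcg
Klf15: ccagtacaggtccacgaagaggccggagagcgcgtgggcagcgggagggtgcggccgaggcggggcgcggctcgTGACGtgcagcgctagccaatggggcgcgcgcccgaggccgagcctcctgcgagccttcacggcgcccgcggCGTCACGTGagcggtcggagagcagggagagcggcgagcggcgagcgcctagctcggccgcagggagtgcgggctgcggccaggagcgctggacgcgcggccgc
Abcg2: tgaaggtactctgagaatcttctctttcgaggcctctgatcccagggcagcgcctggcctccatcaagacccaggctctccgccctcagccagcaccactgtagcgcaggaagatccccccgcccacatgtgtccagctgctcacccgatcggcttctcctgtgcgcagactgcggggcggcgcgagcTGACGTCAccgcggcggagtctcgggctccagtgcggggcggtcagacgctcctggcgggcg

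Promoters were matched by symbol for 84 of the 112 called genes and for 9704 of all genes tested. The glucocorticoid response element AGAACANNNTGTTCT was in none of the 9704 windows, so its exact letters say nothing here about the receptor. Its half-site AGAACA was in 2 of 53 promoters of genes called higher and 2 of 31 of genes called lower, against 10.60% of all. The E-box was in 6 of 53 and 3 of 31, against 7.88% of all. The cAMP response element was in 3 of 53 (Abcg2, Lrrc8a and Slc25a33) and 0 of 31, against 2.88% of all, and its half-site in 13 of 53 and 5 of 31, against 27.45%. These counts describe letters in short windows and are not binding sites. The sequences shown above were picked among genes that held such letters. Of the Period genes, Per3 held the cAMP half-site, and Per1 and Per2 held none of these motifs.

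Genes of the vascular endothelium gave calls in the lower direction. Of 27 tested endothelial receptor, junction and identity genes, 8 were called lower, against 0.358% of all genes, and none higher. Of the 27, 1 had a positive log2 fold change and the median was -0.30. Both high Cort libraries lay below both sham libraries in 19 of the 27, an order found in 16.9% of all genes. Kdr, the main receptor for vascular endothelial growth factor, was at 26.1 and 30.0 CPM in high Cort libraries and 50.5 and 51.2 CPM in sham (-0.85 ± 0.08, adjusted p = 6.4e-05). Cd93 and Clec14a are related transmembrane lectins of endothelial cells. Cd93 was at 14.7 and 16.8 CPM in high Cort libraries and 32.6 and 36.9 CPM in sham (-1.14 ± 0.12, adjusted p = 0.000617). Clec14a was at 5.62 and 5.66 CPM in high Cort libraries and 9.57 and 10.9 CPM in sham (-0.86 ± 0.11, adjusted p = 0.00125). The protocadherin gene Pcdh12 was at 0.931 and 2.2 CPM in high Cort libraries and 4.39 and 5.89 CPM in sham (-1.67 ± 0.29, adjusted p = 0.0178). The apelin receptor gene Aplnr (-0.87 ± 0.16), Cd34 (-0.71 ± 0.12), Egfl7 (-0.47 ± 0.10) and Mcam (-0.32 ± 0.07) were the other 4 that fell.

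Within the endothelial list the junction and identity genes spread widely. Pecam1, an adhesion molecule of all endothelium, was at 19.4 and 18.5 CPM in high Cort libraries and 19.5 and 19.0 CPM in sham (-0.02 ± 0.08). Vwf, which encodes von Willebrand factor, was at 83.4 and 86.8 CPM in high Cort libraries and 85.2 and 86.4 CPM in sham (-0.01 ± 0.06). The tight junction gene Cldn5 (-0.21 ± 0.06, adjusted p = 0.237) and the endothelial cadherin gene Cdh5 (-0.30 ± 0.08, adjusted p = 0.110) lay between these and the called genes. Taken over Pecam1 in the same library, Kdr was 1.34 and 1.62 in high Cort, against 2.59 and 2.70 in sham, and Cd93 was 0.756 and 0.905 in high Cort, against 1.67 and 1.94 in sham. Kdr, Cd93 and Clec14a were called in each of the 4 fits that left out a library. Without high Cort replicate 1, and likewise without sham replicate 2, these 3 were the called members, and the list's median was -0.24 and -0.32; without sham replicate 1 there were 6 calls.

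Transporters of the blood-brain barrier moved in both directions. Of 19 tested, 3 were called higher and 3 lower, against 0.513% and 0.358% of all genes, and the median was -0.11. Abcg2, an efflux pump on the blood-facing side of the endothelium, had the smallest p of all genes here, at 40.3 and 38.2 CPM in high Cort libraries and 20.0 and 21.7 CPM in sham (0.91 ± 0.07, adjusted p = 1.9e-05). Over Pecam1 it was 2.08 and 2.06 in high Cort, against 1.03 and 1.14 in sham, opposite to Kdr and Cd93. Mfsd2a and Slc19a3, given above, were the others that rose. Slco1c1, a carrier of thyroxine, was at 95.4 and 100.3 CPM in high Cort libraries and 125.7 and 124.4 CPM in sham (-0.35 ± 0.05, adjusted p = 0.00205). The monocarboxylate carrier Slc16a1 was at 69.9 and 73.6 CPM in high Cort libraries and 95.9 and 91.1 CPM in sham (-0.38 ± 0.05, adjusted p = 0.00205), and the organic anion carrier Slc22a8 fell by 0.58 ± 0.09 on the log2 scale (adjusted p = 0.00637). Without high Cort replicate 1 the call for Abcg2 stood alone in this list, and Slco1c1 and Slc16a1 had adjusted p of 0.0579 and 0.0565.

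Angiogenic, matrix and mural cell genes gave 7 calls in all, in both directions, beside 0.871% called over all genes. Of 25 tested angiogenic genes 1 rose and 1 fell, 10 were positive and the median was -0.02. Vegfa, the ligand of Kdr, was at 125.4 and 131.5 CPM in high Cort libraries and 148.4 and 154.3 CPM in sham (-0.24 ± 0.05, adjusted p = 0.0208). Ctgf, a matricellular protein gene, was at 22.4 and 17.5 CPM in high Cort libraries and 6.83 and 8.20 CPM in sham (1.40 ± 0.22, adjusted p = 0.0191). Mmp14, a membrane-bound metalloproteinase that cleaves collagen and activates other proteases, was at 7.61 and 9.95 CPM in high Cort libraries and 22.2 and 21.4 CPM in sham (-1.30 ± 0.14, adjusted p = 0.00111). Of 31 tested matrix genes, Mmp14, the protease gene Adamts9 (-0.50 ± 0.10) and the laminin chain gene Lama4 (-0.38 ± 0.09) fell and the fibronectin gene Fn1 rose (0.38 ± 0.06), with 10 positive and a median of -0.10. Of 15 pericyte and smooth muscle genes, Pdgfrb, the growth factor receptor of pericytes, fell (-0.30 ± 0.06, adjusted p = 0.0246). Mmp14 alone of these kept its call without each library; without high Cort replicate 1 the others had adjusted p between 0.101 and 0.571. All of these others also lost the call without sham replicate 2, and all but Fn1 without sham replicate 1.

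Meningeal fibroblast markers, which a dissection can include, had lower values in high Cort without a call. Of 16 tested, 3 were positive and the median was -0.26. The summed level of the list was 101.8 and 120.7 CPM in high Cort libraries and 140.6 and 146.5 CPM in sham. The growth factor gene Igf2, which these cells express, was at 9.51 and 15.5 CPM in high Cort libraries and 26.4 and 26.1 CPM in sham (-1.05 ± 0.22, adjusted p = 0.109), and Col1a1 had -0.52 ± 0.12 (adjusted p = 0.0892). Both passed without high Cort replicate 2 (0.00623 for Igf2 and 0.0334 for Col1a1), as they did by DESeq2 (0.00162 for Igf2 and 0.00922 for Col1a1). The part of this tissue in the matrix results was not tested. Erythroid genes also had lower values: the sum of Hbb, Hba1 and Hba2 stood at 25.2 and 21.9 CPM in high Cort libraries and 35.4 and 40.5 CPM in sham, none of 7 tested members was positive and none was called. Hbb passed by DESeq2 (adjusted p = 0.0309), with no filter (0.0462), with the thalamus score (0.0317) and without sham replicate 1 (0.0429).

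Astrocyte genes were split. Of 16 tested, the glucocorticoid targets Glul and Gjb6 rose, while Gfap, the intermediate filament of astrocytes, and Aqp4, their water channel, fell. Over all genes tested, 0.513% were called higher and 0.358% lower. Gfap was at 294.7 and 296.5 CPM in high Cort libraries and 372.6 and 412.5 CPM in sham (-0.41 ± 0.07, adjusted p = 0.0183). Aqp4 was at 1184 and 1341 CPM in high Cort libraries and 1534 and 1490 CPM in sham (-0.26 ± 0.05, adjusted p = 0.0183). The median of the list was 0.08, and the metabolic marker Aldh1l1 stood at 46.3 and 39.8 CPM in high Cort libraries and 37.5 and 39.2 CPM in sham (0.16 ± 0.07, adjusted p = 0.553). Gfap and Aqp4 lost the call without high Cort replicate 1 (adjusted p = 0.182 and 0.300) and without sham replicate 2 (adjusted p = 0.1 and 0.0806); Aqp4 also did without sham replicate 1, and Gfap without high Cort replicate 2.

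Fabp7 and Nes, members of the radial glia and tanycyte list, were among the clearest decreases, while the list as a whole did not fall. Fabp7, a brain lipid-binding protein of radial glia and astrocytes, was at 13.1 and 12.9 CPM in high Cort libraries and 25.1 and 29.1 CPM in sham (-1.06 ± 0.10, adjusted p = 6.4e-05). Nes, the intermediate filament nestin, was at 12.7 and 14.8 CPM in high Cort libraries and 24.0 and 23.9 CPM in sham (-0.79 ± 0.09, adjusted p = 0.00042). Both kept the call without each library. The other 15 tested members of the radial glia and tanycyte list were not called, and the median was 0.01. Fabp7 was between 15.3 and 19.6 CPM in the 8 libraries of the other 4 groups, so sham stood above all groups and high Cort below all.

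Oligodendrocyte lineage genes gave 1 call among 34, beside 0.871% called over all genes. Of 16 genes of precursors and newly formed cells 4 were positive and the median was -0.07; Pdgfra, the growth factor receptor of precursors, had 0.00 ± 0.07. Enpp6, a marker of newly forming oligodendrocytes, was at 3.72 and 4.89 CPM in high Cort libraries and 9.06 and 7.17 CPM in sham (-0.90 ± 0.15, adjusted p = 0.00664), but its adjusted p was 0.0627 without sham replicate 1, and 0.124 in the fit without high Cort replicate 1. Gpr17, a receptor of committed precursors, was at 25.8 and 35.3 CPM in high Cort libraries and 38.9 and 41.9 CPM in sham (-0.40 ± 0.14, adjusted p = 0.425; 0.019 without high Cort replicate 2). None of 18 mature myelin genes was called; 4 were positive and their median was -0.23. Mbp, the myelin basic protein gene, was at 2160 and 2500 CPM in high Cort libraries and 3062 and 2588 CPM in sham (-0.28 ± 0.12, adjusted p = 0.627).

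Microglia and macrophage genes moved unequally. None of 17 tested microglia markers was called, but 14 were negative, 12 of them with groups that did not overlap (16.9% of all genes), and the median was -0.15. Cx3cr1, the fractalkine receptor of microglia, was at 35.5 and 41.9 CPM in high Cort libraries and 46.5 and 48.8 CPM in sham (-0.30 ± 0.09, adjusted p = 0.256). Outside the lists, the macrophage surface gene Adgre1 was at 10.5 and 12.5 CPM in high Cort libraries and 16.1 and 17.7 CPM in sham (-0.55 ± 0.10, adjusted p = 0.0109). Mpeg1, which encodes the pore-forming protein perforin-2 of macrophages, was at 53.2 and 65.5 CPM in high Cort libraries and 80.6 and 91.7 CPM in sham (-0.53 ± 0.09, adjusted p = 0.0125). Each kept its call in 2 of the 4 fits that left out a library, and these genes were chosen after their values were seen.

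Cd163, the hemoglobin scavenger receptor of perivascular macrophages, went the other way. It was at 7.49 and 6.39 CPM in high Cort libraries and 2.47 and 3.00 CPM in sham (1.33 ± 0.17, adjusted p = 0.00126), and kept its call without each library. Mrc1, another marker of these macrophages, was at 11.7 and 12.2 CPM in high Cort libraries and 9.77 and 13 CPM in sham (0.06 ± 0.22), so Cd163 over Mrc1 was 0.642 and 0.523 in high Cort, against 0.253 and 0.230 in sham. No other tested member of the macrophage and leukocyte list was called. Ptprc (-0.42 ± 0.11, adjusted p = 0.104), RT1-Da (-2.10 ± 0.52, adjusted p = 0.0873, under 1 CPM in all 4 libraries) and Cd74 (-0.58 ± 0.53) were negative. So were RT1-Ba (-0.52 ± 0.72) and Lyve1 (-0.24 ± 0.26), and F13a1 was at 0.00 ± 0.29. Among single genes chosen after their values were seen, the phagocytic receptor gene Mertk rose (0.36 ± 0.07, adjusted p = 0.0178) and so did Mfge8 (0.29 ± 0.06, adjusted p = 0.0380), which bridges such cells to phagocytes. Each kept the call in 1 of the 4 fits that left out a library. No gene of 24 in the interferon and antigen processing list was called (median -0.13), and of 17 cytokine and NF-kB genes the chemokine gene Cxcl12 rose (0.31 ± 0.05, adjusted p = 0.00968). Cxcl12 lost the call without sham replicate 1 (0.0627), sham replicate 2 (0.0995) or high Cort replicate 1 (0.230).

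Neuronal genes gave few calls and small values. Among 48 tested potassium channel genes the median was 0.08, 38 were positive, and in 20 both high Cort libraries were above both sham libraries (20.9% of all genes). Kcnf1, which encodes a silent subunit that modifies other voltage-gated channels, was the single call. It was at 74.5 and 74.2 CPM in high Cort libraries and 48.1 and 55.1 CPM in sham (0.53 ± 0.07, adjusted p = 0.00122), and kept the call without each library. Of 31 monoamine, acetylcholine and histamine receptor genes 25 were positive and none called. Hrh3, the presynaptic histamine receptor, was at 254.5 and 214.7 CPM in high Cort libraries and 167.2 and 192.1 CPM in sham (0.38 ± 0.09, adjusted p = 0.148). Hrh3 passed by DESeq2 (0.0019), with the thalamus score (0.0184) and without high Cort replicate 2 (0.0226). No gene was called among 38 glutamate and GABA receptor subunits (median 0.03), 28 genes of synaptic vesicle release (median 0.05) or 16 neuron markers (median 0.03). The thalamus list had a median of 0.07 with 13 of 16 positive, and its part in these small values was not tested.

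Immediate early genes, which mark recent neuronal activity, were not called either. Of 20 tested, 11 were positive and the median was 0.01. Egr1 was at 12.9 and 18.0 CPM in high Cort libraries and 22.4 and 13.8 CPM in sham, with overlapping groups. Among 18 MAP kinase phosphatases and Sprouty inhibitors, Dusp3 (0.23 ± 0.04), Spry4 (0.39 ± 0.08) and Errfi1 rose, beside 0.513% called higher over all genes. Without high Cort replicate 1 none of the 3 was called, with adjusted p between 0.173 and 0.513, and likewise without either sham library. Spry4 was at 25.1 and 25.1 CPM in high Cort libraries and 18.5 and 19.7 CPM in sham, and between 21.4 and 31.2 CPM in the other 4 groups, so sham was the lowest group.

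**Figure D5:**
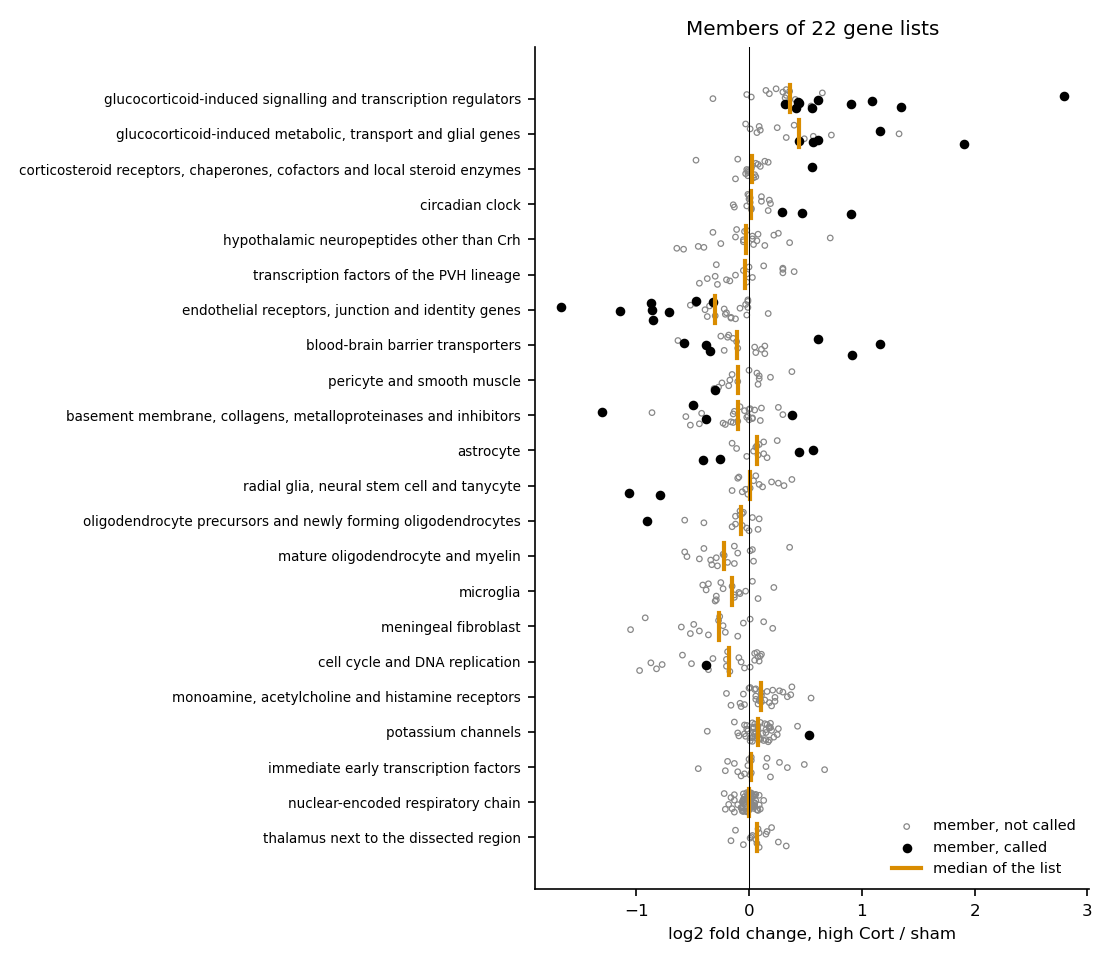
Log2 fold change of high Cort over sham (x axis) for the tested members of 22 gene lists (rows); filled points are called genes, open points are not, and the bar is the list's median. The glucocorticoid-induced lists lie right of zero (medians 0.36 and 0.44), the endothelial list left of it (-0.30), and the respiratory chain list lies at zero (0.00).

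Housekeeping processes showed little movement. None of 70 respiratory chain genes (median 0.00), 25 cholesterol genes (0.02), 20 heat shock chaperones (0.00), 21 genes of the unfolded protein response (-0.04) or 27 genes of fatty acid metabolism (0.01) was called. Of 24 cell cycle genes, Ccnd2, a cyclin of progenitor cells, fell, at 21.8 and 25.4 CPM in high Cort libraries and 30.2 and 31.4 CPM in sham (-0.38 ± 0.08, adjusted p = 0.0347; 0.484 without high Cort replicate 1). The median of that list was -0.18 and 8 members were positive. In the amino acid response list Slc7a11, the cystine and glutamate exchanger, fell (-0.35 ± 0.06, adjusted p = 0.0118), and in the insulin and FoxO list Igfbp5, which encodes a binding protein of insulin-like growth factors, fell (-0.43 ± 0.07, adjusted p = 0.0109). Slc7a11 lost the call in each fit that left out a library, and Igfbp5 lost it without sham replicate 2 (0.0969) or high Cort replicate 1 (0.128). Adipor2, an adiponectin receptor gene, rose (0.40 ± 0.06, adjusted p = 0.00521), but not without sham replicate 2 (0.082) or high Cort replicate 2 (0.0554).

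Of the 112 called genes, 61 were in none of the lists, and those below were chosen for description after their values were seen, apart from Pla2g3 and Gpatch4, which were among the 15 with the highest fold changes. Pla2g3, a secreted phospholipase, was at 6.88 and 3.49 CPM in high Cort libraries and 1.26 and 0.988 CPM in sham (2.19 ± 0.34, adjusted p = 0.00862), and lost the call without sham replicate 2 (0.0998). Paqr8, a membrane progestin receptor gene, was at 204.2 and 174.4 CPM in high Cort libraries and 131.9 and 132.9 CPM in sham (0.51 ± 0.06, adjusted p = 0.00111), and kept the call without each library. The same held for Gpatch4, at 17.0 and 15.3 CPM in high Cort libraries and 8.79 and 7.87 CPM in sham (0.95 ± 0.11, adjusted p = 0.00042).

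The next 3 genes rose by less than 1.5-fold. Prodh, which starts the breakdown of proline in mitochondria, was at 123.7 and 108.7 CPM in high Cort libraries and 86.7 and 87.1 CPM in sham (0.42 ± 0.07, adjusted p = 0.0155). Gpt2, the mitochondrial alanine aminotransferase, was at 54.1 and 46.8 CPM in high Cort libraries and 37.3 and 38.2 CPM in sham (0.41 ± 0.07, adjusted p = 0.0109). The citrate transporter gene Slc13a5 was at 25.5 and 24.7 CPM in high Cort libraries and 19.1 and 19.1 CPM in sham (0.39 ± 0.07, adjusted p = 0.0133). The groups did not overlap in any of the 3, and each kept the call in 1 of the 4 fits that left out a library.

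Most called genes set high Cort apart from the whole series and not from sham alone. Both high Cort libraries lay above the other 10 libraries in 53 of the 66 genes called higher, against 6.8% of all genes tested, and below the other 10 in 40 of the 46 called lower, against 5.1%. Both sham libraries lay below the other 10 in 10 of the genes called higher (Acot11, Bcl6, Fam151a, Klhl26, Lonrf3, Per2, Per3, Slc25a33, Spry4 and Tmem129). Both sham libraries lay above the other 10 in 11 of the genes called lower, against 2.2% of all genes tested. Among these 11 were Fabp7, Mmp14, Slco1c1 and Slc22a8. The sets share some members. In Fabp7, Mmp14, Slco1c1 and Slc22a8 both high Cort libraries also lay below the other 10, and in Bcl6 and Lonrf3 above them. The calls chose these genes by the same high Cort and sham libraries, so the counts are a description and were not tested. The thalamus score was lower in the other groups (5.82 to 6.85) than in high Cort and sham (7.02 to 7.44). The supplemented ADX and acute libraries were also processed by the authors in a separate run. The part of either difference in these positions was not tested. Crh was at 25.6 and 26.9 CPM in ADX, 14.3 and 18.9 CPM in supplemented ADX, 18.6 and 15.2 CPM at 1 h acute and 20.8 and 23.8 CPM at 3 h acute, all above both high Cort libraries. Kdr, between 40.3 and 54.2 CPM in those groups, and Gpd1, between 21.4 and 44.5 CPM, also had no library as far out as high Cort.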

How the data were processed

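RNA libraries of PVH-containing hypothalamus were made with the Illumina TruSeq kit, per the labels' protocols. CASAVA 1.8.2, TopHat2 2.1.1, Cufflinks 2.2.1 and build rn6 are listed, per the submitters' processing notes; the sources used here do not give their roles, the annotation or whether counting used strand. Raw fragments, as deposited, are expected counts for each gene, not scaled by the authors. In the 4 libraries compared 0.747% of values were not whole and all were rounded. The deposited FPKM, which the authors scaled within a run of 3 groups, served 2 alternatives.

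The fit used edgeR 4.0.16 in R 4.3.3: filterByExpr (minimum count 10, minimum total 15), TMM, and a robust quasi-likelihood fit of 12 libraries with a coefficient per group (6 residual degrees of freedom), since 2 libraries per group leave little to estimate spread. Tests were 2-sided with Benjamini-Hochberg adjustment over 12856 genes. A permutation of 4 libraries could not reach 0.05, its smallest 2-sided p being 0.333. The script was tested on simulated data. The members, 42 gene lists (882 genes tested) and alternatives were chosen with earlier results of these data known. List members were described by counts and medians, with no set test. Each list's count of called members is to be read beside the 0.871% called over all genes. Named genes were the 15 called genes highest and 15 lowest in fold change with mean log2 CPM of at least 1, up to 5 per list by smallest p, called list members, and a fixed set (Hif3a, Per1, Sgk1, Fkbp5, Tsc22d3, Crh, Nr3c1, Nr3c2, Trh, Oxt, Avp, Fos and Egr1); the text gives those it describes, and others are marked as chosen after their values were seen. That holds also for uncalled list members set beside the called ones (Aldh1l1, Arnt2, Arntl, Cdh5, Cdkn1a, Cebpb, Cldn5, Crhr1, F13a1, Mbp, Mrc1, Nfkbia, Pdgfra, Pecam1, RT1-Ba, Sult1a1, Txnip and Vwf). Alternatives also used DESeq2 1.42.0 and limma 3.58.1 (pseudocounts 1 and 0.1, FPKM of at least 1 in at least 2 libraries). Replicates of a group differed by more than sampling noise, so none was merged.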

Additional observations from a re-analysis of the deposited data

How the results depend on the processing

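Of the 112 genes called, 110 were called with RLE size factors (114 calls), 111 with no filter on low counts (126), 110 with a stricter filter (117), 99 by DESeq2 (138) and 75 in a fit of the 6 libraries of the same run (84). The count moved by more than 1.5 times in a fit of the 4 libraries alone (46), by limma-trend on log2(FPKM + 1) and log2(FPKM + 0.1) (22 and 18, fitted to 6 libraries), and when the thalamus score entered as covariate (174, which held all 112). The cause was not tested, except that the smaller fits had fewer samples. Leaving out 1 library gave 23 to 121 calls; the lone library of a group is then assumed to vary like the other groups. None of the 60 named called genes changed sign. Of the 158 not called, 8 did when 1 library was left out, none with a call there, and over these fits their log2 fold changes ran from -0.04 to 0.09 (Nr3c2), -0.10 to 0.39 (Fos), -0.53 to 0.17 (Egr1), -0.01 to 0.15 (Pcsk2), -0.56 to 0.18 (Lyve1), -0.00 to 0.20 (Hspb8), -0.01 to 0.09 (Elavl4) and -0.07 to 0.41 (Pdp1). Replicate numbers were not tied to an animal or day in the labels. Deviations of same-numbered high Cort and sham libraries correlated at 0.03. With 2 libraries per group this value cannot show whether the numbers mark a shared day. A replicate block gave 105 calls (166 together with the thalamus score). With the block Trh was called (0.0289), and among the genes described Tsc22d3 (0.0655), Mcam (0.0779), Egfl7 (0.0543), Lama4 (0.0813) and Ccnd2 (0.0568) were not. RLE and the other settings moved the median over all genes by at most 0.01. Without high Cort replicate 1, 19 of 60 named called genes kept the call. With few fragments for genes under 1 CPM, differences there were not detectable at this depth. The counts of list members without each library were added after the data were seen.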
